A study of Mus musculus with 10 samples.

Results

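Antiviral interferon-stimulated genes of the mouse colon were followed across 10 RNA-seq libraries. They were taken from a fixed list of 36 antiviral and interferon signalling genes, of which 34 had a row in the expression table of 18398 genes. Mx1 and Mx2 are not analysed here. The libraries came from colon of WT (wild-type) mice. The 5 on normal diet were the controls, and the other 5 were on pro-inflammatory diet. The sources used here give no further allele or agent and no age, sex, strain or composition of the diet. The labels do not say that each sample was a separate animal, so p-values here speak of the spread among these 10 samples alone, part of which may be technical. All values are FPKM, the fragments mapped to a gene scaled to its length and to the library's total.

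Interferons are secreted when cells sense viral nucleic acid. Type I and type III interferons act through JAK kinases on a complex that includes STAT2 and IRF9, which binds the interferon-stimulated response element in promoters and switches on the genes described here. Interferon gamma, made by T and natural killer cells, acts mainly through the gamma-activated sequence and induces genes such as Irf1. In the gut, type III interferon signals chiefly to epithelial cells, which carry its receptor.

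Reads on genes numbered 15652783 to 18341956 per library, and the closest pair of libraries differed by far more than sampling noise (mean chi-square of 11.5 per gene). In bulk tissue, fewer cells of a type and less RNA per cell cannot be told apart. Hoxb13, a homeobox gene of the distal colon and rectum, was at 211, 262, 218, 333 and 322 FPKM in normal diet libraries 1 to 5. On the pro-inflammatory diet it was at 312, 0.417, 292, 342 and 20.9 FPKM. Pro-inflammatory diet libraries 2 and 5 therefore stood far below the other 8 in Hoxb13, with 10 and 455 reads against 4746 to 8035. The summed level of 6 distal position genes of 7 listed was 8.62 and 34.3 FPKM in these 2 libraries, against 263 to 424 in the other 8. No normal diet library had low Hoxb13, so low Hoxb13 and the diet cannot be told apart in these 2 libraries. Results are given with and without them. Epithelial markers were present throughout, 9 of 9, with summed levels of 4740 to 6578 FPKM on the normal and 5678 to 7014 on the pro-inflammatory diet. Within that list 4 genes had libraries 2 and 5 outside the range of the other 8. Krt20 was at 644 and 680 FPKM in them (196 to 278 in the other 8), Cdx2 at 122.5 and 118 (12.7 to 53.3) and Vil1 at 305 and 317 (183 to 270), while Cdh1 was lower, at 233 and 254 (313 to 359). The part of this difference in the results was not tested.

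Pro-inflammatory diet libraries 2 and 5 held the high values of nearly every interferon-stimulated gene. Both libraries lay above all 5 normal diet libraries for 34 of 34 genes, while library 2 did so for 28.6% of all 12345 tested genes and library 5 for 23.4%. Both also lay above all other 8 libraries for 33 of 34 genes, where 13.9% of all tested genes did. The exception was Epsti1, whose level in pro-inflammatory diet library 3 exceeded that in library 2. For 31 of 34 genes the order was library 5, then library 2, then the other 8, an order seen in 5.82% of all tested genes. Relative to the normal diet median, the median fold over the 34 genes was 2.97 in library 2 and 5.80 in library 5, against 0.999 and 0.957 over the tested genes with a normal diet median above 0. The level was at least 2-fold the normal diet median for 23 genes in library 2 and for 32 in library 5, where 5.24% and 4.52% of all tested genes reached that fold.

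**Figure D1:**
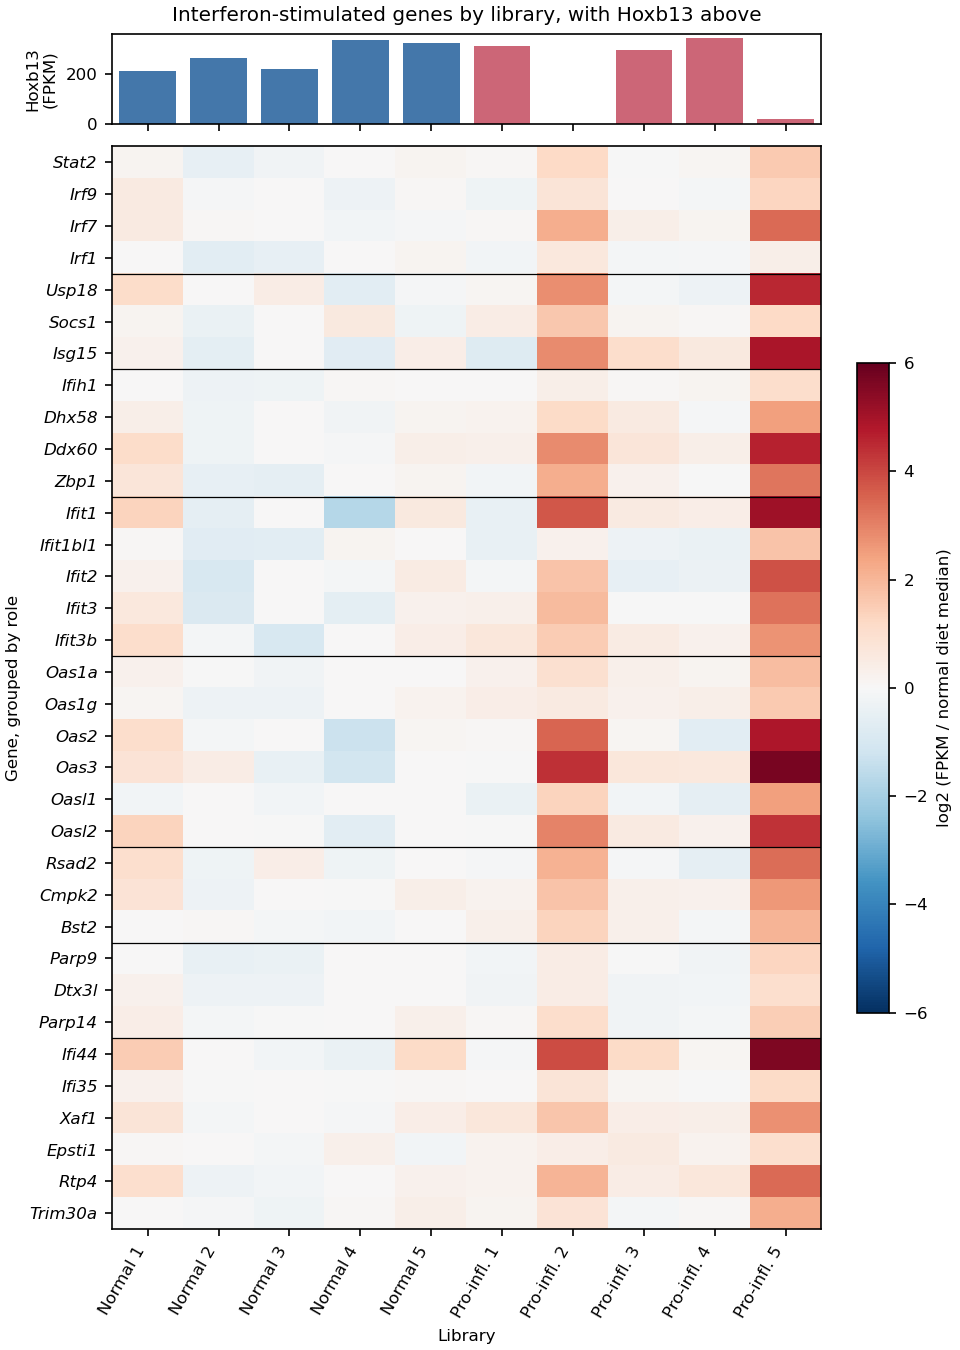
Heat map of the 34 genes (rows, grouped by role) in 10 libraries (columns), as log2 of FPKM over the normal diet median, with Hoxb13 FPKM as bars above (blue, normal diet; red, pro-inflammatory diet). The 2 libraries with Hoxb13 at 0.417 and 20.9 FPKM hold the deep red columns, and the column of library 5 is the darker one for 32 of 34 genes.

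Between the diets as labelled, no gene passed. All 34 genes had a positive log2 fold change of FPKM + 1 (47.1% of all tested genes did), with a median of 0.68 against -0.01 over all tested genes. In limma with Benjamini-Hochberg adjustment 0 of 34 passed in either direction (0.0% of 12345 genes), and adjusted p ran from 0.201 for Epsti1 to 0.617. At an unadjusted p under 0.05 there were 5 genes higher (8.16% of all tested genes) and 0 lower (9.25%); these were Epsti1, Oas1g, Oas1a, Bst2 and Ifih1. With limma voom on whole reads 0 passed, and 4 higher genes had an unadjusted p under 0.05 (7.61% of all tested genes). All 34 genes passed the filter of a mean of 1 FPKM, but 2 of them, Ifit3b and Oas3, had a normal diet mean below it. Ifit3b, Oas3, Oas2 and Ifi44 passed it only through pro-inflammatory diet libraries 2 and 5, as their mean over the remaining libraries was below it. They are kept in the counts above. Leaving out pro-inflammatory diet libraries 2 and 5 lowered the median log2 fold change to 0.085, with 23 genes higher and 11 lower (49.0% of all tested genes were higher).

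At the start of the pathway, most interferon genes could not be assessed. Of 12 listed interferon genes, 2 had a row in the table and neither reached the filter. The others had no values here, so their level is unknown. Ifng, which encodes interferon gamma, was listed at 0 in 3 libraries and at most at 0.264 FPKM, in normal diet library 2. It was at 0.236 and 0.208 FPKM in pro-inflammatory diet libraries 2 and 5, which is 5 and 4 reads, too few to order the libraries. Among 10 receptor and kinase genes, 5 were higher and 5 lower, and 0 passed limma's adjusted threshold. Only Ifnlr1, which was lower, had an unadjusted p under 0.05 (9.25% of all tested genes were lower at that p). The median log2 fold change of these 10 genes was -0.018, and -0.019 without pro-inflammatory diet libraries 2 and 5.

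Ifnlr1, the receptor chain specific to type III interferon, was at 6.06, 5.96, 5.71, 5.36 and 5.93 FPKM in normal diet libraries 1 to 5. It was at 5.31, 4.71, 4.86, 5.16 and 4.81 FPKM on the pro-inflammatory diet. Every value of that diet lay below every normal diet value, which 2.07% of all tested genes did, and libraries 2 and 5 were the lowest. The log2 fold change was -0.188 (SE 0.056, limma adjusted p = 0.178), and -0.155 without libraries 2 and 5.

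Promoters of these genes are shown because the response element is the sequence through which they are known to be driven. RefSeq promoters (GRCm38.p6, 250 bases before to 50 after each start site) were present for 27 of the 34 genes. The response element letters searched were GAAA, then 2 bases of any kind, then GAAA again (on the other strand, TTTC at both ends). They occurred on either strand in 15 of 27, against 3.73% of the 9889 tested genes with a promoter and 3.44% of all 32851 promoters. The gamma-activated letters TTCNNNGAA, which read the same on both strands, occurred in 5 of 27 (Bst2, Ifi35, Ifit2, Irf1 and Oas1a), against 8.22% of those tested genes. A match of either kind is a description of these letters and not a measured binding site. The 160 bases before the start site follow for 6 genes, 5′ to 3′ on the gene's strand, with both kinds of match in capitals. Isg15 had the largest log2 fold change between the diets, Ifit1 and Ifit3 stand for the IFIT cluster and Rsad2 for the effectors. Irf1 and Socs1 differ from the rest in their order between libraries.
Isg15, chr4:156200819-156200978, minus strand: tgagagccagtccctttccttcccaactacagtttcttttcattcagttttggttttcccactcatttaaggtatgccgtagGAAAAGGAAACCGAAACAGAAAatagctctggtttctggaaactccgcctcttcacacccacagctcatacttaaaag
Ifit1, chr19:34640729-34640888, plus strand: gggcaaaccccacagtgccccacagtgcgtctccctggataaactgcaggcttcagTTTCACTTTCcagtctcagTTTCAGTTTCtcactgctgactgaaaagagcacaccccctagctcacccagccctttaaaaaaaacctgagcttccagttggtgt
Ifit3, chr19:34583369-34583528, plus strand: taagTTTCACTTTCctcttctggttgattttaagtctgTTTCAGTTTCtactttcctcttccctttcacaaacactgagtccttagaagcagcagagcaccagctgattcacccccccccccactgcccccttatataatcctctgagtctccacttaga
Rsad2, chr12:26456453-26456612, minus strand: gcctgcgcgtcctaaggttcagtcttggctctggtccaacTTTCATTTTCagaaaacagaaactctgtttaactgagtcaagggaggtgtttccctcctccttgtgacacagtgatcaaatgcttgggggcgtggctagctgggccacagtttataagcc
Socs1, chr16:10785537-10785696, minus strand: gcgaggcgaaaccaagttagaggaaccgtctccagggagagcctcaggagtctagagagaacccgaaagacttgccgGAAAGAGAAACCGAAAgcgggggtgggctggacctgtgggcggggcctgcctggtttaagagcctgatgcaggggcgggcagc
Irf1, chr11:53769854-53770013, plus strand: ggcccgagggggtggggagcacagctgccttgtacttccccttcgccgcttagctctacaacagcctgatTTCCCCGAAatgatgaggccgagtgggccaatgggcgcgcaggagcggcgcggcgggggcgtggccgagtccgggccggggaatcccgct

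Isg15 held 3 overlapping matches to the response element letters, beginning at positions -78, -72 and -66 relative to the start site. Ifit1 held 2 separate ones, beginning at -104 and -85, and Ifit3 held 2, at -156 and -122. The Irf1 window held only the gamma-activated letters, beginning at position -90. In Bst2 a match of each kind overlapped. Of the 15 genes with response element letters, the median fold over the normal diet median in library 5 was 4.49; it was 5.80 for the 12 genes without the letters in this window and 9.24 for the 7 without a promoter entry.

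**Figure D2:**
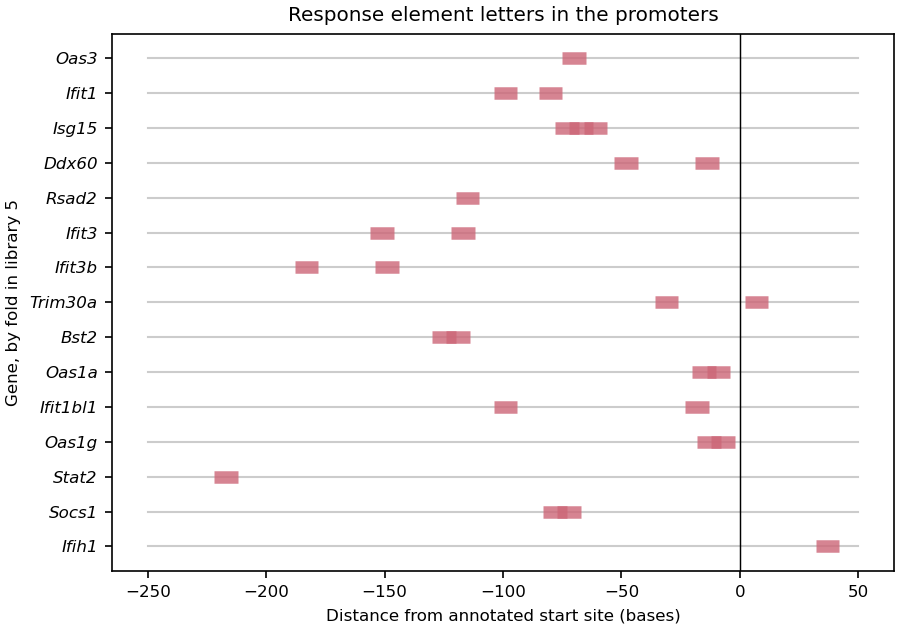
Positions of the response element letters on either strand (red bars) within 250 bases before to 50 bases after the annotated start site (0, vertical line) for the 15 genes that hold them, ordered by their fold in pro-inflammatory diet library 5; Ifit1bl1 and Trim30a combine 2 annotated start sites each. The matches of Isg15, Bst2, Oas1a, Oas1g and Socs1 overlap one another.

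The 4 transcription factors of the pathway had a median fold over the normal diet median of 1.99 in library 2 and 2.73 in library 5, and Irf7 stood apart among them. Stat2, a subunit of the complex that binds the response element (chr10:128270559-128292849), was at 10.7, 6.66, 8.13, 9.49 and 10.7 FPKM in normal diet libraries 1 to 5. On the pro-inflammatory diet it was at 9.98, 21.6, 9.24, 10.3 and 28.2 FPKM. Libraries 2 and 5 were the high ones, and the other 3 lay inside the normal diet range. Irf9, the DNA-binding partner of Stat2 (chr14:55603571-55610030), was at 9.16 to 16.4 FPKM on the normal diet, at 19.0 and 27.7 in libraries 2 and 5 and at 9.48 to 11.2 in the other 3. Its annotated exons overlap exons of Rnf31 on the same strand, so reads of that overlap could count for either gene. Of the 125-base windows of its longest coding transcript, 0.0% occur in another gene.

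Irf7, the master factor that amplifies type I interferon production (chr7:141262706-141266481, minus strand), had the largest folds of the 4 factors. It was at 29.4, 21.4, 20.3, 18.1 and 19.2 FPKM on the normal diet and at 21.3, 91.1, 26.4, 23.0 and 212 on the pro-inflammatory diet. Its level in library 5 was 10.4 times the normal diet median and in library 2 it was 4.48 times. As labelled groups these values were 21.7 ± 4.47 and 74.8 ± 82.2 FPKM (SD, n = 5 each). Their log2 fold change was 1.14 (SE 0.58), with an adjusted p of 0.330 in limma. Without libraries 2 and 5 the log2 fold change was 0.128.

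Irf1, an early target of interferon gamma (chr11:53770014-53778374), followed another order. It was at 44.3, 27.6, 31.0, 42.9 and 47.9 FPKM on the normal diet and at 38.9, 66.0, 39.9, 41.3 and 55.5 on the pro-inflammatory diet. Library 2 was above library 5, and the fold over the normal diet median was 1.54 and 1.29. Irf1 and Socs1 were the only 2 of the 34 genes that were higher in library 2 than in library 5.

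Isg15 and the 2 feedback inhibitors had the largest median folds of any role, 6.89 in library 2 and 22.7 in library 5. Isg15 encodes a ubiquitin-like protein that is attached to other proteins (chr4:156199424-156200818, minus strand). It was at 4.74, 2.70, 3.99, 2.48 and 5.34 FPKM on the normal diet and at 2.31, 28.8, 8.21, 5.99 and 119 on the pro-inflammatory diet. The 2 high libraries were 7.21 and 29.7 times the normal diet median. Libraries 3 and 4 also exceeded all normal diet libraries, and library 1 was the lowest of all 10. Isg15 had the largest log2 fold change of the 34 genes between the labelled diets (1.67, SE 0.81, limma adjusted p = 0.311), and it went to 0.341 without libraries 2 and 5.

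Usp18 encodes the protease that removes ISG15 and damps the type I interferon receptor (chr6:121245906-121270917). It was at 1.99, 0.936, 1.29, 0.608 and 0.906 FPKM on the normal diet and at 1.02, 6.45, 0.861, 0.750 and 21.3 on the pro-inflammatory diet. Library 5 was 22.7 times the normal diet median and library 2 was 6.89 times. The remaining 3 pro-inflammatory diet libraries lay inside the normal diet range.

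Socs1, which inhibits JAK kinases (chr16:10782240-10785536, minus strand), was at 0.952 to 1.86 FPKM on the normal diet. It was at 1.68, 3.88, 1.42, 1.31 and 2.86 FPKM on the pro-inflammatory diet. As for Irf1, library 2 was the highest, at 3.10 times the normal diet median against 2.29 times in library 5.

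**Figure D3:**
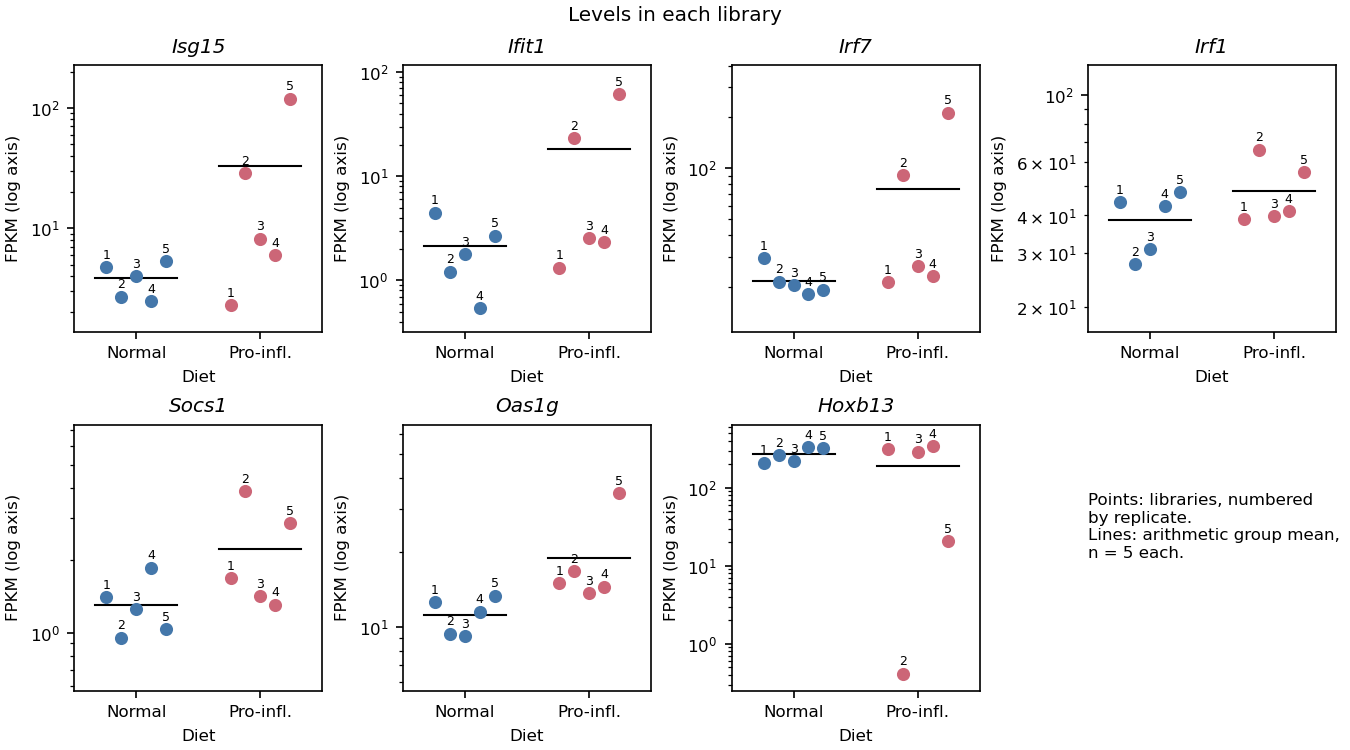
FPKM (log axes) of 6 interferon-stimulated genes and Hoxb13 in each library, by diet; points are libraries numbered by replicate and lines are arithmetic group means (n = 5 each). Libraries 2 and 5 of the pro-inflammatory diet are high for Isg15, Ifit1, Irf7, Irf1 and Socs1 and low for Hoxb13, and for Oas1g every pro-inflammatory diet point lies above every normal diet point.

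The 4 cytosolic nucleic acid sensors had median folds of 3.35 in library 2 and 7.33 in library 5, with a wide spread. Ddx60, a helicase reported to promote RIG-I-like receptor signalling (chr8:61928087-62038244), was at 2.56, 1.01, 1.20, 1.14 and 1.54 FPKM on the normal diet. It was at 1.48, 8.48, 1.98, 1.53 and 29.4 FPKM on the pro-inflammatory diet, so that library 5 stood 24.6-fold and library 2 stood 7.10-fold above the normal diet median. Zbp1, a sensor of Z-form nucleic acid that can trigger necroptosis, was at 4.16 to 9.90 FPKM on the normal diet, at 26.8 and 55.3 in libraries 2 and 5 and at 5.37 to 7.18 in the other 3.

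Dhx58, which encodes LGP2, a regulator of the RNA sensor MDA5, was at 8.34 and 20.4 FPKM in libraries 2 and 5, against 3.12 to 5.44 in the other 8. Ifih1, which encodes MDA5 itself (chr2:62595798-62646255, minus strand), had the smallest folds of the 4 sensors. It was at 16.2, 13.2, 13.5, 17.0 and 16.6 FPKM on the normal diet and at 16.5, 20.6, 17.0, 18.1 and 33.9 on the pro-inflammatory diet. Its fold over the normal diet median was 1.28 in library 2 and 2.10 in library 5 (log2 fold change between the labelled diets 0.40, SE 0.18, limma adjusted p = 0.279).

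The IFIT proteins bind viral RNA ends, and their genes lie side by side on chromosome 19 (34550694 to 34650009). Ifit1 was at 4.47, 1.21, 1.78, 0.537 and 2.68 FPKM on the normal diet and at 1.33, 23.3, 2.56, 2.33 and 61.3 on the pro-inflammatory diet. Library 5 was 34.4 times and library 2 was 13.1 times the normal diet median, while the other 3 pro-inflammatory diet libraries lay inside the normal diet range. Normal diet library 1 was the highest of the 8 libraries with high Hoxb13.

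Ifit2 was at 1.19 to 3.26 FPKM on the normal diet, at 7.64 and 32.7 in libraries 2 and 5 and at 1.66 to 2.15 in the other 3. Ifit2 had the largest ratio of library 5 to library 2 of the 34 genes, at 4.28. Ifit3 was at 6.66 and 17.4 FPKM in these libraries against 0.977 to 2.77 in the other 8, and its neighbour Ifit3b at 2.10 and 4.73 against 0.376 to 1.53. These copies share 23.4% of the 125-base windows of Ifit3 and 20.3% of those of Ifit3b, so reads could be split between them. Ifit3b in normal diet library 3 also rested on the fewest reads of any value of the 34 genes, 15.

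Ifit1bl1, an Ifit1-like gene (chr19:34592891-34601956, minus strand), had the smallest folds of its family. It had the highest normal diet mean per length of the 34 genes, 63.1 ± 16.4 FPKM (SD, n = 5). It was at 73.1, 44.8, 46.3, 80.3 and 70.7 FPKM on the normal diet and at 52.3, 83.5, 56.6, 54.0 and 229.5 on the pro-inflammatory diet. Library 2 exceeded the highest normal diet library only slightly, at 1.18 times the normal diet median, while library 5 was at 3.25 times. Without library 5 alone its log2 fold change turned from 0.362 to -0.019.

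The OAS enzymes make 2′-5′ oligoadenylate on sensing double-stranded RNA, which activates RNase L. Oas3 (chr5:120753098-120777661, minus strand) was at 1.21, 0.921, 0.489, 0.311 and 0.675 FPKM on the normal diet. On the pro-inflammatory diet it was at 0.654, 13.95, 1.10, 1.04 and 35.5 FPKM. These were the largest folds of all 34 genes, 20.7 times the normal diet median in library 2 and 52.6 times in library 5. Oas2, beside it on the chromosome, was at 10.5 and 27.6 FPKM in libraries 2 and 5 and at 0.389 to 1.95 in the other 8.

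Oas1g (chr5:120876142-120887613, minus strand) was the 1 gene of 34 whose diets did not overlap. It was at 12.6, 9.37, 9.19, 11.5 and 13.4 FPKM on the normal diet and at 15.0, 16.8, 13.7, 14.6 and 34.6 on the pro-inflammatory diet. All tested genes without overlap in this direction came to 1.77%. The log2 fold change was 0.63 (SE 0.23, limma adjusted p = 0.215), and 0.349 (SE 0.122, adjusted p = 0.262) without libraries 2 and 5. Oas1a, a catalytically active paralogue next to it, was at 17.5 to 24.5 FPKM on the normal diet and at 23.9, 38.9, 25.4, 22.8 and 72.3 on the pro-inflammatory diet. Of the 125-base windows of Oas1g, 33.7% also occur in Oas1a, so how reads were divided between the pair is uncertain.

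Oasl2 was at 51.2 and 130.1 FPKM in libraries 2 and 5, against 4.22 to 16.1 in the other 8, of which normal diet library 1 held the highest. Oasl1, described as an inhibitor of Irf7 translation, was at 6.31, 7.04, 6.27, 7.21 and 7.18 FPKM on the normal diet, the tightest spread of the 34 genes (coefficient of variation 6.96%). It was at 5.33, 17.6, 6.37, 4.83 and 38.2 FPKM on the pro-inflammatory diet. Libraries 1 and 4 of that diet lay below every normal diet library. Its log2 fold change went from 0.558 over all libraries to -0.266 without libraries 2 and 5 (limma unadjusted p = 0.0167, adjusted p = 0.257).

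Further effectors were high in the same 2 libraries. Rsad2 encodes viperin, which makes a chain-terminating nucleotide, and Cmpk2 is the kinase gene beside it on chromosome 12. Rsad2 was at 4.83 and 11.8 FPKM in libraries 2 and 5, at 0.961 to 2.34 on the normal diet and at 0.798 to 1.10 in the other 3 pro-inflammatory diet libraries. Cmpk2 was at 7.92 and 14.8 FPKM in the 2 libraries and at 1.94 to 4.19 in the other 8. Bst2 encodes tetherin, which holds budding virus at the cell surface (chr8:71534255-71537456, minus strand). It was at 16.5, 17.3, 15.4, 14.5 and 17.0 FPKM on the normal diet and at 20.5, 41.2, 20.1, 15.2 and 66.8 on the pro-inflammatory diet, where libraries 1 and 3 also exceeded every normal diet library.

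The ADP-ribosylation group had the smallest median folds of any role. Parp9 and Dtx3l encode partners of a ubiquitin ligase complex, and Parp14 encodes a further ADP-ribosyltransferase. Parp9 was at 25.4 and 44.8 FPKM in libraries 2 and 5 and at 13.6 to 18.5 in the other 8. Dtx3l was at 19.7 and 28.5 against 11.7 to 17.5, and Parp14 at 23.8 and 32.2 against 9.91 to 15.1. Their folds over the normal diet median ran from 1.37 to 2.08 in library 2 and from 1.98 to 2.81 in library 5. Parp9 and Dtx3l lie head to head on chromosome 16 and overlap in exons on opposite strands. Reads of that overlap cannot be told apart unless counting used the strand, a setting that the sources used here do not state. Parp14 overlaps Gm49730 in exons on the same strand, with 0.0% of the 125-base windows of its longest coding transcript shared.

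Of the 6 remaining genes, Ifi44, a GTP-binding interferon-induced protein, had the largest folds, at 9.61 and 31.5 FPKM in libraries 2 and 5 against 0.496 to 1.85 in the other 8. Rtp4, a chaperone of membrane receptors that also restricts viruses, was at 8.34 and 21.4 FPKM against 1.67 to 4.15. It overlaps Gm45338 in exons on the same strand and shares 9.91% of its 125-base windows with it, so how reads were divided is uncertain. Xaf1, a pro-apoptotic factor, was at 6.62 and 13.96 against 1.94 to 3.56. Trim30a, an inhibitor of inflammatory signalling, was at 7.28 and 18.8 against 3.52 to 5.40, and Ifi35 at 26.6 and 33.8 against 15.1 to 18.4.

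Epsti1 had the smallest p of the 34 genes. It was at 15.0, 14.1, 13.1, 17.5 and 12.6 FPKM on the normal diet and at 16.6, 18.6, 20.4, 16.2 and 28.3 on the pro-inflammatory diet. Its libraries overlapped only through normal diet library 4 (log2 fold change 0.42, SE 0.14, limma adjusted p = 0.201), and its log2 fold change was 0.280 without libraries 2 and 5.

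T and natural killer cell and general leukocyte markers were also high in libraries 2 and 5, but in another order. T and natural killer cell markers lay above every normal diet library for 9 of 9 genes in both libraries, with summed levels of 44.9 and 30.6 FPKM against 6.96 to 11.1 on the normal diet and 9.12 to 17.9 in the other 3. The sum of 17.9 was in pro-inflammatory diet library 1, where 7 of these 9 genes lay above every normal diet library. The summed general leukocyte markers, 4 of 4 measured, were at 132 and 95.7 FPKM in libraries 2 and 5, at 123 in pro-inflammatory diet library 1, and at 43.5 to 86.3 on the normal diet. Macrophage and monocyte markers, 9 of 9, summed to 391 and 276 FPKM in libraries 2 and 5, 363 in library 1 and 220 to 322 on the normal diet. Library 5 thus lay inside the normal diet range for that sum. The 4 leukocyte, 9 macrophage and 6 tested T and natural killer cell markers were all higher in library 2 than in library 5. Of the T and natural killer cell markers below the filter, Cd8a was also higher in library 2, at 3.01 against 2.11 FPKM. Ncr1 and Klrb1c were higher in library 5, at 0.640 against 0.621 and 0.621 against 0.478 FPKM. In contrast, 32 of the 34 interferon-stimulated genes were higher in library 5 than in library 2. Of 12322 tested genes with a normal diet median above 0, 7199 were higher in library 2 and 5103 in library 5.

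In pro-inflammatory diet library 1 the T and natural killer cell, leukocyte and macrophage sums exceeded those of all normal diet libraries. In that library 30 of the 34 interferon-stimulated genes lay inside the normal diet range, where 68.3% of all tested genes did. Siglech, a defining marker of plasmacytoid dendritic cells, which make large amounts of type I interferon, was at 0.543 and 0.442 FPKM in libraries 2 and 5 and at 0.157 to 0.754 in the other 8. That list, 6 of 6 measured, summed to 823 to 1109 FPKM on the normal and 956 to 1209 on the pro-inflammatory diet, almost all of it Klk1, which the colon expresses in every library. The neutrophil genes S100a8 and S100a9 were at most at 3.33 and 0.974 FPKM, both on the normal diet. Csf3r of the same list was at 1.10 and 0.439 FPKM in libraries 2 and 5 and at 0.271 to 0.703 in the other 8. Of that list 6 of 7 genes had a row, and Ly6g made up most of their sum in each library except pro-inflammatory diet library 2. The sum was 3.43 and 9.10 FPKM in libraries 2 and 5, while the normal diet range was 70.8 to 209 and libraries 1, 3 and 4 held 152 to 210. Ly6g alone was at 1.47 and 8.26 FPKM in libraries 2 and 5 and at 70.3 to 209 in the other 8. The sum therefore does not speak for the other genes of that list. B cell markers, 6 of 6, summed to 56.6 and 40.3 FPKM in libraries 2 and 5 (normal diet 19.3 to 45.7, libraries 1, 3 and 4 28.9 to 83.1). Conventional dendritic cell markers, 6 of 6, summed to 12.4 and 8.59 FPKM in them (normal diet 4.29 to 7.36, libraries 1, 3 and 4 4.93 to 9.62). Smooth muscle markers, 7 of 7, summed to 2307 and 3184 FPKM (normal diet 2659 to 3949, libraries 1, 3 and 4 2505 to 2818). The part of these cell types in the interferon-stimulated genes was not tested.

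**Figure D4:**
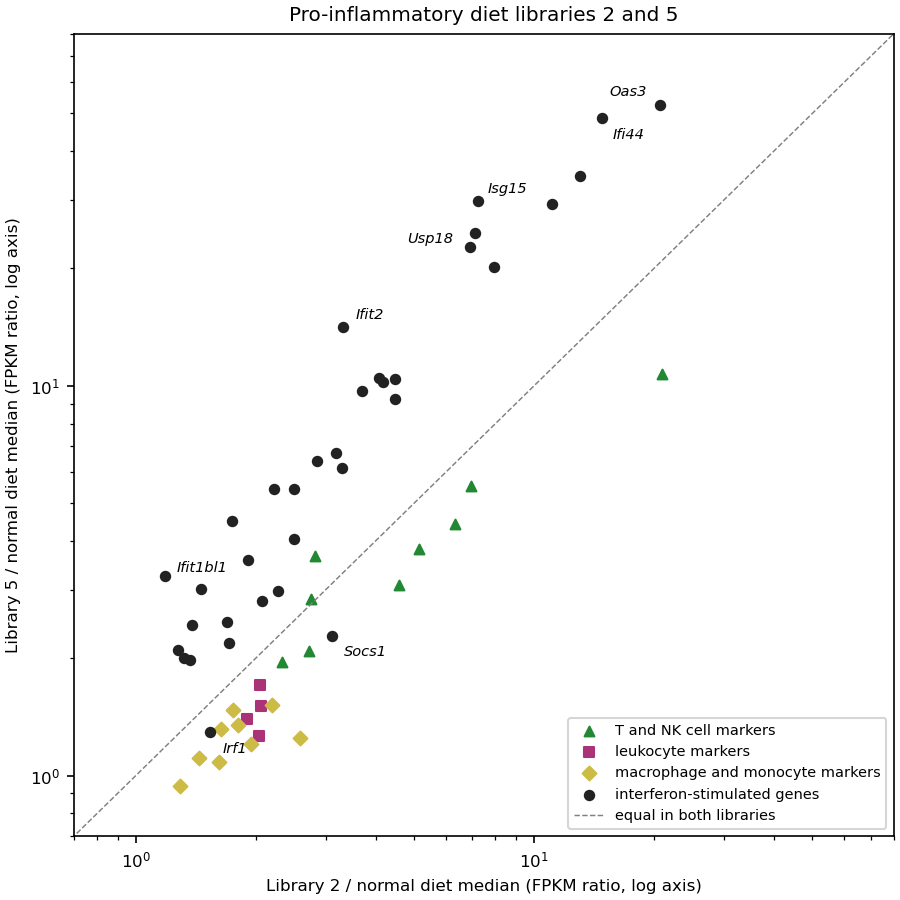
Level in pro-inflammatory diet library 5 (vertical, log axis) against library 2 (horizontal, log axis), each as the ratio of FPKM to the normal diet median; black points are the 34 interferon-stimulated genes and coloured points are immune cell markers. Of the black points, 32 lie above the dashed line of equal levels and Irf1 and Socs1 lie below it.

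Among the 8 libraries with high Hoxb13, all of libraries 1, 3 and 4 of the pro-inflammatory diet lay inside the normal diet range for 23 of 34 genes, where 30.0% of all tested genes did. Only Oas1g had these 3 libraries above all normal diet libraries (5.24% of all tested genes did), and 0 of 34 genes had them all below (4.33%). The mean log2(FPKM + 1) over the 34 genes was 3.08, 2.52, 2.59, 2.60 and 2.83 in normal diet libraries 1 to 5 and 2.73, 2.86 and 2.74 in pro-inflammatory diet libraries 1, 3 and 4. It was 4.09 and 5.09 in libraries 2 and 5 of that diet. In limma over these 8 libraries 0 of 34 genes passed in either direction (0.0% of tested genes), while an unadjusted p under 0.05 was reached by 2 higher genes (8.06% of tested genes) and 1 lower (7.36%). The 2 higher genes were Oas1g and Epsti1, and the lower one was Oasl1. With log2(Hoxb13 + 1) as a covariate over all 10 libraries, the median log2 fold change was 0.340, with 31 genes higher and 3 lower, and 0 passed.

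Normal diet library 1 was the highest of these 8 libraries for 21 of 34 genes, where 19.8% of all tested genes had their highest value in it. Its Oasl2 was at 16.1 FPKM against 4.22 to 6.64 in the other 4 normal diet libraries, its Irf7 at 29.4 against 18.1 to 21.4 and its Zbp1 at 9.90 against 4.16 to 6.80. Its Hoxb13, 211 FPKM, was the lowest of the 8. Normal diet library 3 had a similar Hoxb13, 218 FPKM, but was the highest of the 8 for 0 of 34 genes. A link was not tested.

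**Figure D5:**
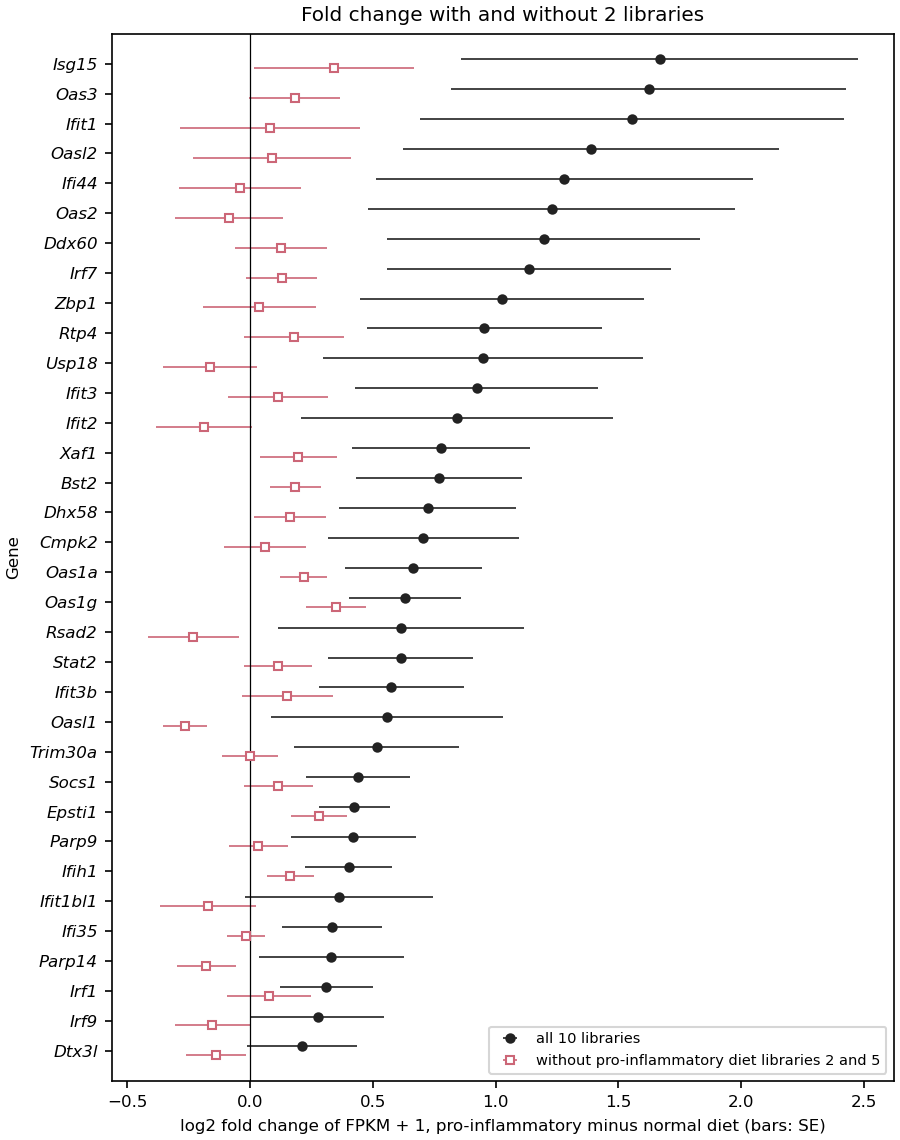
Log2 fold change of FPKM + 1, pro-inflammatory minus normal diet, for each of the 34 genes over all 10 libraries (black circles) and without pro-inflammatory diet libraries 2 and 5 (open red squares); bars are standard errors from limma. The median goes from 0.68 to 0.085, and 11 of the squares lie left of 0.

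Other genes of the pathway were less uniform. Of 54 tested genes among 60 other antiviral interferon-stimulated genes, 48 were higher and 6 lower between the labelled diets (median log2 fold change 0.238). Over all tested genes, 47.1% were higher. Of the 54, 0 passed limma's adjusted threshold, while 4 genes, all higher, had an unadjusted p under 0.05 (8.16% of all tested genes). The median fold of the 54 over the normal diet median was 1.47 in library 2 and 1.85 in library 5. In library 5, 22 of 54 reached 2-fold, where 4.52% of all tested genes did. Ifitm1, a membrane restriction factor, had the smallest p of that list, at 12.7, 12.5, 13.7, 15.2 and 13.6 FPKM on the normal and 16.7, 17.5, 14.2, 15.8 and 16.7 on the pro-inflammatory diet (log2 fold change 0.242, SE 0.070, adjusted p = 0.173). Parp10 followed, with a log2 fold change of 0.342 (SE 0.131). Without libraries 2 and 5, 29 of the 54 were higher and 25 lower, with a median of 0.012 (49.0% of all tested genes were higher).

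Enzymes that attach ISG15 to proteins were also high in libraries 2 and 5. Uba7, its activating enzyme, was at 26.1 and 33.7 FPKM in libraries 2 and 5 and at 10.9 to 16.4 in the other 8. Herc6, a ligase for it, was at 5.30 and 14.3 FPKM against 1.81 to 2.66. Of these 4 genes 3 were higher and 1 lower, 0 passed, and their median log2 fold change was 0.576. Without libraries 2 and 5, 2 were higher and 2 lower, with a median of -0.0003 (49.0% of all tested genes were higher).

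Genes that sense nucleic acid upstream of interferon, 14 tested of 19 listed, had 8 higher and 6 lower and a median log2 fold change of 0.081, with 0 passing and 0 reaching an unadjusted p under 0.05. Without libraries 2 and 5, 4 of the 14 were higher and 10 lower, with a median of -0.040 (49.0% of all tested genes were higher). Cgas, the cytosolic DNA sensor, was at 3.03 and 2.34 FPKM in libraries 2 and 5, while normal diet library 4 and pro-inflammatory diet library 3 were at 2.18 and 2.36. Mavs, the adaptor of RNA sensors, was at 18.9 to 20.3 FPKM on the normal diet and 15.2 to 19.3 on the pro-inflammatory diet (log2 fold change -0.157, SE 0.074, limma adjusted p = 0.306). Among 12 negative regulators 7 were higher and 5 lower with a median of 0.035, and 0 passed. Usp25 alone, which was higher, had an unadjusted limma p under 0.05 (8.16% of all tested genes were higher at that p). Usp25, a deubiquitinase, had a log2 fold change of 0.176 (SE 0.072), and Socs2, a suppressor of cytokine signalling, one of -0.239 (SE 0.115). Without libraries 2 and 5, 6 of the 12 negative regulators were higher and 6 lower, with a median of -0.016.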

How the data were processed

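The authors deposited 1 FPKM value per gene symbol and library. Tools in the submitters' processing notes are HISAT2, Bowtie2, Trimmomatic, StringTie, Cufflinks, HTSeq and DESeq, with build mm10 and no roles; per the labels' protocols, libraries were stranded, from mRNA, and read in pairs. FPKM depends on each library's total, so very abundant genes lower the others. Samples were grouped by the treatment label. After scaling for depth, the values of 18398 of 18398 genes were whole multiples of 1 unit per gene within 0.001 read. The smallest whole numbers that fitted were taken as the reads behind each value, so they are a lower bound. For a gene detected in only 1 library such a fit was certain. Intervals of counting error are not given. Genes with a mean of at least 1 FPKM (12345) were tested on log2(FPKM + 1), a scale that understates changes of low genes, with limma 3.58.1 in R 4.3.3 (eBayes with a mean trend, Benjamini-Hochberg at 0.05), checked on simulated data. The genes and lists were chosen with earlier results of these data known. Named genes were all listed genes and, from each pathway list, the 2 genes with the smallest p, of which 1 is not reported here; other genes named were chosen after their values were seen. Gene coordinates are GENCODE M21 (GRCm38, the assembly of mm10), 1-based; promoters are RefSeq GRCm38.p6. Alternatives changed the pseudocount, filter, scaling, variance model, weights, replicate block, covariate or the libraries kept. Figures used matplotlib 3.10.9.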

Additional observations from a re-analysis of the deposited data

Results flagged for a closer look

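Oas1g in pro-inflammatory diet library 5, at 34.6 FPKM, stood apart from the other 4 libraries of its diet by 0.784 of the group's range on the log2(FPKM + 1) scale, above Dixon's critical value of 0.71 for 5 samples. It was the only such value among 70 groups of 5 examined (34 genes and Hoxb13 in 2 diets), where chance gives about 1 in 20. Since libraries 2 and 5 were both far from the other 3 for most genes, that comparison with the nearest library does not single them out.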

How the results depend on the processing

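Under 22 alternatives, 0 of the 34 genes, 0 of all tested genes and 0 genes of the pathway lists passed limma's adjusted threshold, and the smallest adjusted p of any of the 34 genes was 0.107. With a mean of at least 5 FPKM required, 25 of the 34 genes were tested. The median log2 fold change of the 34 genes ran from 0.362 to 0.867 when single libraries were left out, the lowest without pro-inflammatory diet library 5, and was 0.319 with array weights. Genes without overlap between diets numbered 1 to 3 when 1 library was left out: 3 without pro-inflammatory diet library 1 (3.13% of all tested genes), and 2 without its library 4 (2.51%), normal diet library 1 (2.48%) or normal diet library 4 (4.94%). Genes higher at an unadjusted p under 0.05 numbered 16, 10 and 15 without pro-inflammatory diet libraries 1, 3 and 4 (9.39%, 7.65% and 8.82% of all tested genes), and 2 to 4 without any other single library (5.25% to 9.87%). Without both libraries 2 and 5 the log2 fold change turned negative for Irf9 (-0.154), Usp18 (-0.164), Ifit1bl1 (-0.172), Ifit2 (-0.188), Oas2 (-0.086), Oasl1 (-0.266), Rsad2 (-0.232), Dtx3l (-0.139), Parp14 (-0.179), Ifi44 (-0.041) and Ifi35 (-0.017). It also did with the Hoxb13 covariate for Irf9 (-0.010), Dtx3l (-0.006) and Parp14 (-0.014), with array weights for Irf9 (-0.017), and without library 5 for Ifit1bl1 (-0.019, the lowest of -0.019 to 0.509 without single libraries). Leaving out library 5 or both libraries removes the high values themselves; for the covariate and the array weights the cause was not tested. The groups share replicate numbers, but same-numbered libraries did not deviate together (correlations of -0.263 to 0.061, and 0 of 5 normal diet libraries correlated best with their own number). With the replicate block 0 genes passed and 6 of the 34 (7.07% of all tested genes) were higher at an unadjusted p under 0.05 instead of 5; the median stayed at 0.685.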
